A study of Mus musculus with 12 samples.

Results

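The effect of removing Yap and Taz from hepatocytes was estimated over uninjured and injured livers together, by setting all 6 Yap/Taz KO libraries against all 6 ctrl libraries with injury as a second, additive factor. These 12 libraries, each of 500000 sorted hepatocytes, are the whole series. Each of the 4 groups held 3 libraries: Yap/Taz KO and ctrl without injury, and Yap/Taz KO + CCl4 and ctrl + CCl4 with it. Every mouse, controls included, was of the Yapflox/flox; Tazflox/flox strain, and the labels give the effective genotype of the controls as WT. Knockouts carried in addition AAV8.TBG.PI.Cre.rBG, given into the tail vein at 5e11 genome copies, which expresses Cre recombinase from the hepatocyte promoter TBG; livers were injured or collected 3 weeks later. The injured groups had received carbon tetrachloride (CCl4), a toxin that kills hepatocytes around the central vein, by intraperitoneal injection of 1 ml/kg in corn oil 48 h before collection. No empty vector and no injection of oil alone appears in the labels of the controls, so effects of Cre or of the vector and loss of Yap and Taz cannot be told apart. The labels give neither sex nor age; Xist was detected in all 12 libraries, and of the Y-linked genes Ddx3y, Eif2s3y and Uty had 0 counts in every library and Kdm5d had 1 count in 1 library.

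YAP (gene Yap1) and TAZ (gene Wwtr1) are the transcriptional co-activators at the end of the Hippo pathway. The kinases MST1/2 and LATS1/2 phosphorylate them and hold them in the cytoplasm; unphosphorylated, they enter the nucleus and act through TEAD transcription factors on genes such as Ccn1, Ccn2, Ankrd1 and Amotl2. In the liver the pathway is known for its control of organ size and of the identity of hepatocytes and bile duct cells.

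RNA was read as 3' tags, so that the count of a gene follows its transcript number and not its length. Total counts ranged from 1617761 to 3028951 per library and 11281 to 14879 genes had a count. Of 37141 genes in the table, 17882 had no count in any library, 8479 had too few counts to be tested and 10780 were tested. Injury separated the libraries along the first principal component (52.5% of variance). Levels are given below as CPM (counts scaled to a common library size) after TMM scaling, and differences as log2 fold changes of Yap/Taz KO over ctrl from edgeR, with p-values adjusted by Benjamini and Hochberg over all genes tested. A gene was called at an adjusted p under 0.05. The labels do not say that samples came from separate animals, so a p-value here rests on the spread between samples alone, and that spread may be technical.

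Hepatocyte transcripts dominated every library. The 10 hepatocyte markers, albumin among them, summed to between 154802 and 180667 CPM in Yap/Taz KO and between 135842 and 169378 CPM in ctrl, and to between 114212 and 136242 CPM in Yap/Taz KO + CCl4 and between 80422 and 100974 CPM in ctrl + CCl4. Transcripts of other cells were present as well, in samples of sorted hepatocytes, so their sums do not measure the make-up of the liver. ctrl replicate 1 stood apart in the uninjured state: its macrophage markers summed to 3928 CPM, against 708 and 972 CPM in the other ctrl libraries, and its erythroid and platelet markers to 1636 CPM, against 35.7 and 177 CPM. Pancreatic acinar transcripts summed to 8524 CPM in Yap/Taz KO replicate 1, 2749 and 10523 CPM in Yap/Taz KO + CCl4 replicates 1 and 2, and 2481 CPM in ctrl replicate 1. The highest of the other 8 libraries, ctrl + CCl4 replicate 3, had 385 CPM. Mitochondrially encoded transcripts summed to between 100037 and 226101 CPM in Yap/Taz KO and between 56072 and 122106 CPM in ctrl, and after injury to between 92327 and 115854 CPM in Yap/Taz KO + CCl4 and between 53651 and 168656 CPM in ctrl + CCl4. The median log2 fold change of that list was 0.84 without injury and 0.03 after CCl4. ctrl replicate 3 also stood apart, at -76.0 on the second principal component (10.3% of variance) where the other libraries lay between -13.4 and 26.7, and it had the lowest total and the fewest genes. In bulk samples of sorted cells a smaller number of cells of a type and less RNA per cell cannot be told apart.

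Yap1 fell in Yap/Taz KO hepatocytes and was the only gene called. It stood at 22.2, 9.65 and 14.9 CPM in the Yap/Taz KO libraries, against 40.3, 61.9 and 71.8 CPM in ctrl. After injury it stood at 14.8, 14.2 and 14.4 CPM in Yap/Taz KO + CCl4, against 53.5, 50.6 and 65.7 CPM in ctrl + CCl4. All 6 knockout libraries lay below all 6 controls. The means were 15.6 ± 6.30 CPM in Yap/Taz KO and 58.0 ± 16.1 CPM in ctrl, and 14.5 ± 0.313 CPM in Yap/Taz KO + CCl4 and 56.6 ± 8.02 CPM in ctrl + CCl4 (SD, n = 3 each). The pooled log2 fold change was -1.93 (SE 0.21; 95% interval -2.37 to -1.48; edgeR adjusted p = 0.000692), which leaves 0.263 of the control level. The estimates within each state were -1.89 without injury and -1.96 after CCl4. An exact two-sided permutation of genotype within each injury state gave p = 0.005, the smallest that its 400 arrangements allow.

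Wwtr1 was also lower in every knockout library, by less, and was not called. It stood at 15.7, 10.1 and 18.3 CPM in Yap/Taz KO, against 57.6, 24.2 and 34.8 CPM in ctrl. After injury it stood at 25.3, 19.9 and 24.8 CPM in Yap/Taz KO + CCl4, against 33.7, 32.6 and 34.8 CPM in ctrl + CCl4. The groups did not overlap within either state. The pooled log2 fold change was -0.93 (SE 0.24; 95% interval -1.45 to -0.42; edgeR unadjusted p = 0.00142, adjusted p = 0.483), and the exact permutation test again gave its smallest p of 0.005. Within states the log2 fold change was -1.41 without injury and -0.53 after CCl4, and the difference between them missed the threshold (0.88, SE 0.45; edgeR interaction adjusted p = 0.594). Yap1 lies on chromosome 9 (7931999 to 8004596) and Wwtr1 on chromosome 3 (57455649 to 57575910), each read from the minus strand (GRCm38). Tags near the 3' end can lie outside the exons removed by Cre, so these levels check the labels and do not measure the loss of protein.

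**Figure D1:**
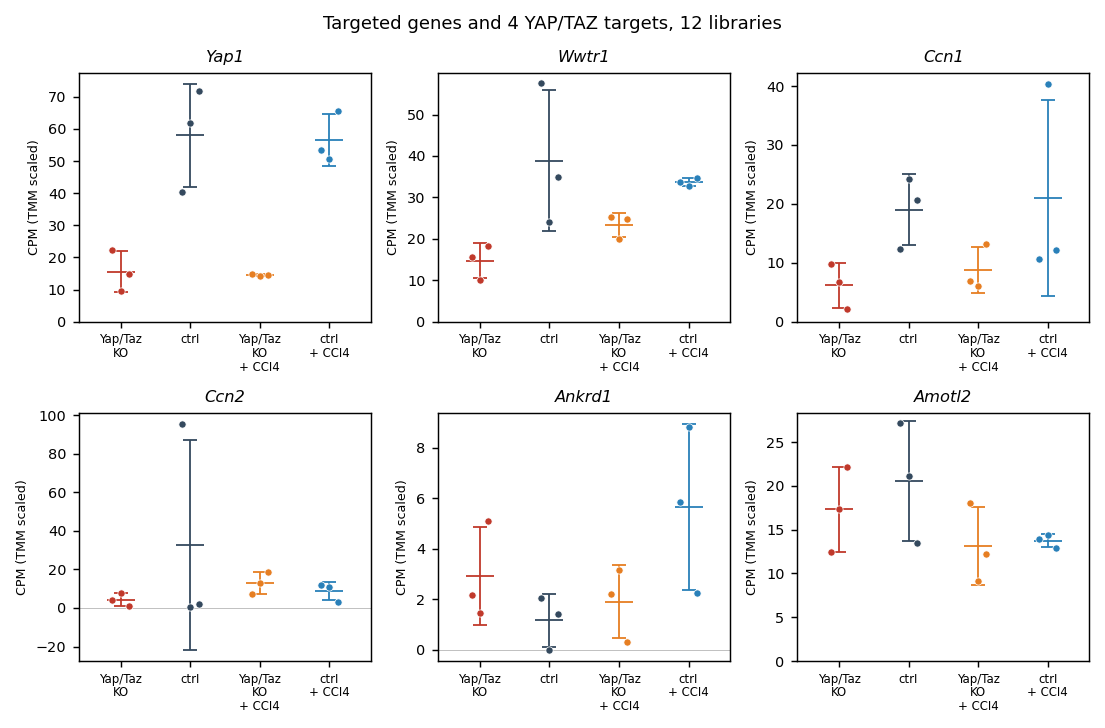
Level of the targeted genes Yap1 and Wwtr1 and of 4 YAP/TAZ target genes in each of the 12 libraries (points; CPM after TMM scaling, linear axis), with the group mean (wide dash) and SD (bars; n = 3). Yap1 lies between 9.65 and 22.2 CPM in all knockout libraries and at 40.3 CPM or more in all controls; a single ctrl library carries the high Ccn2 mean.

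TEAD factors bind a short DNA core, GGAATG. Promoters of 3 classical targets and of Yap1 that hold this core are shown to place it relative to the start of the gene; they run from 250 bases before to 50 bases after the RefSeq start (GRCm38.p6), with the core in capitals, as GGAATG or, where it lies on the opposite strand, as CATTCC.
Ccn1 (chr3:145649936-145650235, minus strand): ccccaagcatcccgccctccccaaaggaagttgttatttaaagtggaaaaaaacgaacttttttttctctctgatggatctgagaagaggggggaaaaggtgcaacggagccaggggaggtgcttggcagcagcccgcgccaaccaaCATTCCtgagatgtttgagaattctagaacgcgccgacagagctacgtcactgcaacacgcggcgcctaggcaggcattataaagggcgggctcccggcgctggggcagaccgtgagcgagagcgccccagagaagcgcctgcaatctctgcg
Ankrd1 (chr19:36119795-36120094, minus strand): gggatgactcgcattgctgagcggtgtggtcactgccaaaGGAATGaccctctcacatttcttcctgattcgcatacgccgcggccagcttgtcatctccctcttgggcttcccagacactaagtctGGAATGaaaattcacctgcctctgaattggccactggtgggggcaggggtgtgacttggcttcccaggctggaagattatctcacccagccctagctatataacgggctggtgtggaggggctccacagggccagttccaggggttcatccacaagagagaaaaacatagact
Amotl2 (chr9:102717554-102717853, plus strand): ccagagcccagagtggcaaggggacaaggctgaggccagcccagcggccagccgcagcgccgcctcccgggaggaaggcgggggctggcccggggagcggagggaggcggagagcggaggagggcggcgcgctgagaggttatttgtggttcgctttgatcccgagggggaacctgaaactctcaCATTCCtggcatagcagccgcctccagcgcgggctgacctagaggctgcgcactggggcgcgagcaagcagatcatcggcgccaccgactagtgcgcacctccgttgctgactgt
Yap1 (chr9:8004547-8004846, minus strand): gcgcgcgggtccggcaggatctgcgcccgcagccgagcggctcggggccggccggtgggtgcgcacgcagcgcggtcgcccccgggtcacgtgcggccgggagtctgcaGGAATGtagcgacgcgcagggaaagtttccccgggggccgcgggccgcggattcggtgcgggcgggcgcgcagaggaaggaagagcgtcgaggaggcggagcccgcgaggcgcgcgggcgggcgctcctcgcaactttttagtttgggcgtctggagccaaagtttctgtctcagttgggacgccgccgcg

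The first base of the core lay at -103 in Ccn1, at -210 and -123 in Ankrd1, at -65 in Amotl2 and at -141 in Yap1. On either strand GGAATG was found in 7 of the 14 promoters available for the YAP/TAZ target list (50%, 95% Wilson interval 26.8 to 73.2%). It was found in 1333 of the 10986 promoters available for all tested genes (12.1%). It was found in 56 of 407 promoters of genes lower in Yap/Taz KO at an unadjusted p under 0.05 (13.8%, interval 10.8 to 17.4%) and in 52 of 395 promoters of genes higher at that p (13.2%, interval 10.2 to 16.9%). Both intervals include the share over all tested genes. They take each promoter as separate, though the 407 came from 300 genes and the 395 from 307. The 14 promoters came from 12 genes, and the 10986 from 8585 of the 10780 genes tested. A match is a description of these letters, not of a bound site.

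The 4 classical targets did not pass the threshold. Ccn1, a secreted matrix protein, stood at 9.75, 6.76 and 2.13 CPM in Yap/Taz KO, against 12.3, 24.2 and 20.6 CPM in ctrl. In the injured state it stood at 6.94, 6.0 and 13.2 CPM in Yap/Taz KO + CCl4, against 10.6, 40.3 and 12.2 CPM in ctrl + CCl4, where the groups overlapped. Its pooled log2 fold change was -1.43 (SE 0.39; 95% interval -2.26 to -0.60; edgeR adjusted p = 0.495), with 6 of 6 knockout libraries below the control mean of their state. Ccn2, its close relative, stood at 4.33, 7.72 and 0.852 CPM in Yap/Taz KO, against 95.4, 0.503 and 2.13 CPM in ctrl, and at 7.26, 13.0 and 18.8 CPM in Yap/Taz KO + CCl4, against 11.7, 11 and 3.22 CPM in ctrl + CCl4. The pooled log2 fold change of -1.03 (SE 0.85; edgeR adjusted p = 0.856) rested on ctrl replicate 1, and without that library it was 0.79. Ankrd1, a nuclear ankyrin repeat protein, was near the limit of detection, at 0.314 to 5.11 CPM over the 6 knockout libraries and 0 to 8.85 CPM over the 6 controls (-0.59, SE 0.62; edgeR adjusted p = 0.892). Amotl2, an angiomotin that binds YAP and restrains it, had a log2 fold change of -0.16 (SE 0.24; 95% interval -0.67 to 0.35; edgeR adjusted p = 0.942).

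Over the whole YAP/TAZ target list no member was called by edgeR or by DESeq2. Of 23 listed genes 18 were tested; 16 lay lower and 2 higher in point estimate, with a median log2 fold change of -0.35 against -0.02 over all genes tested. Members below an unadjusted p of 0.05 numbered 2, both lower, Ccn1 and Myof, where 3.58% of all tested genes were lower at that p. Myof encodes myoferlin, a membrane repair protein, and stood at 48.9, 67.6 and 27.6 CPM in Yap/Taz KO + CCl4, against 97.1, 70.8 and 110 CPM in ctrl + CCl4, with uninjured groups that overlapped at 2.41 to 9.75 CPM in Yap/Taz KO and 3.02 to 15.2 CPM in ctrl (pooled -0.78, edgeR adjusted p = 0.669). The list median was -0.039 without ctrl replicate 1, the uninjured control with the highest macrophage and erythroid sums, -0.16 without Yap/Taz KO replicate 2, -0.19 without Yap/Taz KO + CCl4 replicate 3 and -0.18 without ctrl + CCl4 replicate 2, and -0.096 without the 4 libraries of highest pancreatic acinar sum. Here and below, leaving out those 4 libraries leaves replicate 3 alone in the Yap/Taz KO + CCl4 group. Of the 25 tested Hippo pathway components 2 were lower at that p and none higher (median -0.10; between -0.14 and -0.038 with a library left out, and 0.034 without the 4 libraries of highest pancreatic acinar sum). These were Wwc1 and Wwc2, the KIBRA-family scaffolds that activate LATS kinases. Wwc2 stood at 36.8, 30.4 and 46.0 CPM in Yap/Taz KO, against 69.1, 46.8 and 34.8 CPM in ctrl, and at 42.6, 36.0 and 31.4 CPM in Yap/Taz KO + CCl4, against 52.4, 63.8 and 58.3 CPM in ctrl + CCl4 (pooled -0.55, SE 0.19; edgeR adjusted p = 0.57). Only the injured groups were apart.

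Across all genes, edgeR called 1 of 10780 (0.00928%), Yap1, and none higher. In point estimate 5098 genes lay higher and 5682 lower. At an unadjusted p under 0.05 there were 783 genes (7.26%), 397 higher (3.68%) and 386 lower (3.58%). With libraries scaled by their totals in place of TMM, the median log2 fold change of all genes was -0.16, in place of -0.02, and this split became 158 higher and 852 lower, so directions below are relative to the bulk of genes. DESeq2 on the same design called 15 genes, 10 higher and 5 lower, Yap1 among them. Fitted to all libraries with 1 coefficient per group, the knockout effect had a median SE of 0.38 without injury and 0.35 after CCl4. On the log2 scale the pooled fit had a median SE of 0.27. For 7202 genes (66.8%) the 95% interval lay within a 2-fold change either way, and for 2835 (26.3%) within 1.5-fold. Changes beyond 2-fold therefore lay outside the interval for most genes, while smaller ones did not.

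**Figure D2:**
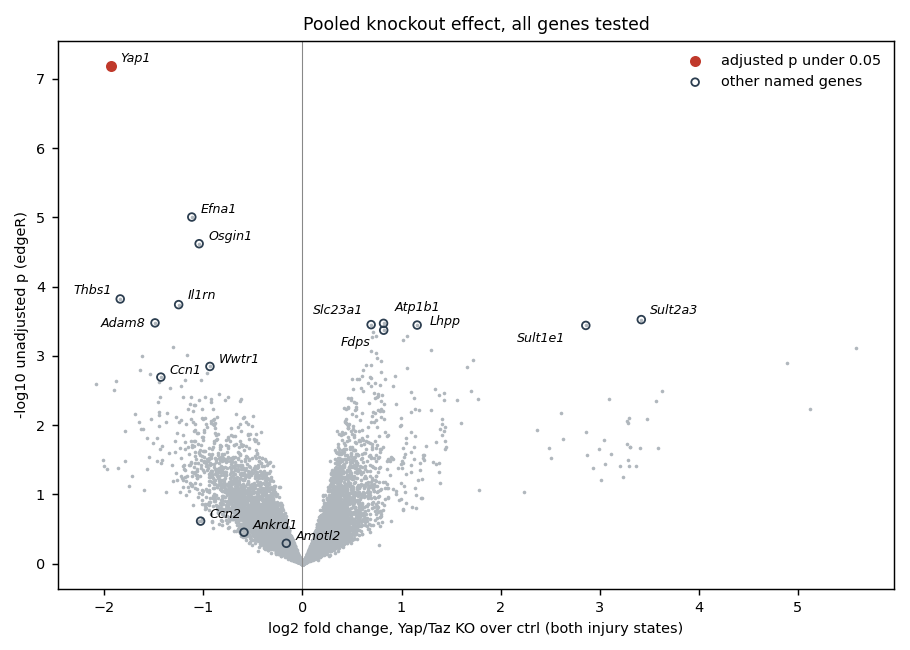
Pooled log2 fold change of Yap/Taz KO over ctrl (x axis) against -log10 of the unadjusted edgeR p (y axis) for the 10780 genes tested. Yap1 (filled) is the 1 gene with an adjusted p under 0.05; Efna1 and Osgin1 are next, and the points between 2 and 4 on the right include the pancreatic acinar transcripts.

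Efna1 and Osgin1 came closest to the threshold after Yap1. Efna1 encodes ephrin-A1, a membrane-anchored ligand of EphA receptors. It stood at 27.1, 22.2 and 27.7 CPM in Yap/Taz KO, against 61.3, 71.5 and 72.5 CPM in ctrl, and at 18.9, 24.3 and 16 CPM in Yap/Taz KO + CCl4, against 37.0, 33.9 and 34.5 CPM in ctrl + CCl4. The groups did not overlap in either state. Its log2 fold change was -1.12 (SE 0.18; 95% interval -1.50 to -0.74) with an edgeR adjusted p of 0.0532. Over the alternatives its adjusted p ranged from 1.85e-05 (DESeq2) to 1 (against a 1.5-fold change), and it passed in 11 of 28. Osgin1, an oxidative stress-induced growth inhibitor, stood at 52.5, 81.5 and 88.6 CPM in Yap/Taz KO, against 137, 157 and 152 CPM in ctrl, and at 137, 180 and 103 CPM in Yap/Taz KO + CCl4, against 348, 331 and 215 CPM in ctrl + CCl4. It too separated the groups in both states, with a log2 fold change of -1.04 (SE 0.18; edgeR adjusted p = 0.0861), and it passed in 7 of 28 alternatives, DESeq2 among them. The log2 fold change of Efna1 was -1.41 without injury and -0.83 after CCl4, and that of Osgin1 was -1.0 without injury and -1.09 after CCl4.

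The other genes of smallest p on the lower side were detected mainly after CCl4 and did not pass. Il1rn, the interleukin-1 receptor antagonist, stood at 41.7, 37.6 and 29.2 CPM in Yap/Taz KO + CCl4, against 72.5, 103 and 127 CPM in ctrl + CCl4, and at 2.98 to 9.65 CPM in Yap/Taz KO, against 6.54 to 14.2 CPM in ctrl (pooled -1.25, SE 0.26; edgeR adjusted p = 0.355). Thbs1, the matrix glycoprotein thrombospondin-1, stood at 8.21, 7.90 and 2.51 CPM in Yap/Taz KO + CCl4, against 21.6, 22.9 and 26.7 CPM in ctrl + CCl4, and at 2.47 CPM or less in every uninjured library (pooled -1.84, SE 0.40; edgeR adjusted p = 0.355). Adam8, a membrane metalloprotease of leukocytes, stood at 18.9, 18 and 16 CPM in Yap/Taz KO + CCl4, against 31.9, 38.7 and 73.5 CPM in ctrl + CCl4 (pooled -1.49, SE 0.35; edgeR adjusted p = 0.355). For Thbs1 and Adam8 the pooled value was in effect the injured comparison, since uninjured levels were near 0. Ccl2, the chemokine that draws monocytes, was chosen after its values were seen because DESeq2 called it: it stood at 33.5, 36.0 and 30.5 CPM in Yap/Taz KO + CCl4, against 85.3, 63.1 and 80.5 CPM in ctrl + CCl4, and did not exceed 6.54 CPM in any uninjured library (pooled -1.31, SE 0.32; edgeR adjusted p = 0.431). Macrophage markers summed to 2901 to 4231 CPM in Yap/Taz KO + CCl4 and 3484 to 6010 CPM in ctrl + CCl4, and monocyte and neutrophil markers to 1199 to 1773 CPM in Yap/Taz KO + CCl4 and 1729 to 2216 CPM in ctrl + CCl4. Much of the monocyte and neutrophil sum was Fn1, which hepatocytes also make; without it, a sum added after its values were seen, the groups were apart at 433 to 635 CPM in Yap/Taz KO + CCl4 and 859 to 1452 CPM in ctrl + CCl4. The part of these cells in the 4 genes was not tested.

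The 6 genes of smallest p on the higher side were enzymes, transporters and a pump subunit of hepatocytes, and none passed in edgeR. Slc23a1, a vitamin C transporter, stood at 112, 98.0 and 86.9 CPM in Yap/Taz KO, against 64.6, 57.9 and 78.9 CPM in ctrl, and at 72.0, 79.9 and 72.9 CPM in Yap/Taz KO + CCl4, against 51.6, 35.1 and 40.6 CPM in ctrl + CCl4 (pooled 0.69, SE 0.16; edgeR adjusted p = 0.355). Lhpp, a phosphohistidine phosphatase, stood at 33.0, 55.0 and 58.3 CPM in Yap/Taz KO, against 13.2, 25.2 and 26.3 CPM in ctrl, and at 6.94, 7.27 and 13.2 CPM in Yap/Taz KO + CCl4, against 4.76, 3.97 and 4.19 CPM in ctrl + CCl4 (pooled 1.16, SE 0.26; edgeR adjusted p = 0.355). Fdps, farnesyl diphosphate synthase of the cholesterol pathway, stood at 95.3, 108 and 112 CPM in Yap/Taz KO, against 73.6, 46.3 and 64.7 CPM in ctrl, and at 71.3, 50.2 and 54.6 CPM in Yap/Taz KO + CCl4, against 45.0, 22.3 and 29.3 CPM in ctrl + CCl4 (pooled 0.82, SE 0.19; edgeR adjusted p = 0.362). These 3 genes separated the groups in both states, as did 62 genes on the higher side (0.575% of those tested) and 24 on the lower side (0.223%); 105 genes (0.974%) separated the groups in both states in opposite directions.

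Atp1b1, the beta subunit of the sodium pump, stood at 206, 285 and 235 CPM in Yap/Taz KO, against 102, 129 and 117 CPM in ctrl, and at 136, 93.8 and 202 CPM in Yap/Taz KO + CCl4, against 95.6, 95.8 and 98.3 CPM in ctrl + CCl4 (pooled 0.82, SE 0.18; edgeR adjusted p = 0.355). In the injured state the lowest knockout library lay below all controls. Sult1e1, the oestrogen sulfotransferase, had a pooled log2 fold change of 2.86 (SE 0.64; edgeR adjusted p = 0.355) that was carried unevenly, with 10.3, 163 and 12.3 CPM in Yap/Taz KO, against 9.87, 2.52 and 7.82 CPM in ctrl, and 46.1, 31.3 and 12.6 CPM in Yap/Taz KO + CCl4, against 5.49, 1.53 and 8.38 CPM in ctrl + CCl4. Sult1e1 also separated the groups in both states, without injury only narrowly, at 10.3 against 9.87 CPM. Sult2a3, a hydroxysteroid sulfotransferase with near-identical paralogs between which reads may be split, was detected almost only without injury, at 30.9, 28.5 and 7.24 CPM in Yap/Taz KO, against 0.411, 4.53 and 0 CPM in ctrl (pooled 3.42, SE 0.77; edgeR adjusted p = 0.355). In injured libraries of either genotype it did not exceed 0.631 CPM.

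**Figure D3:**
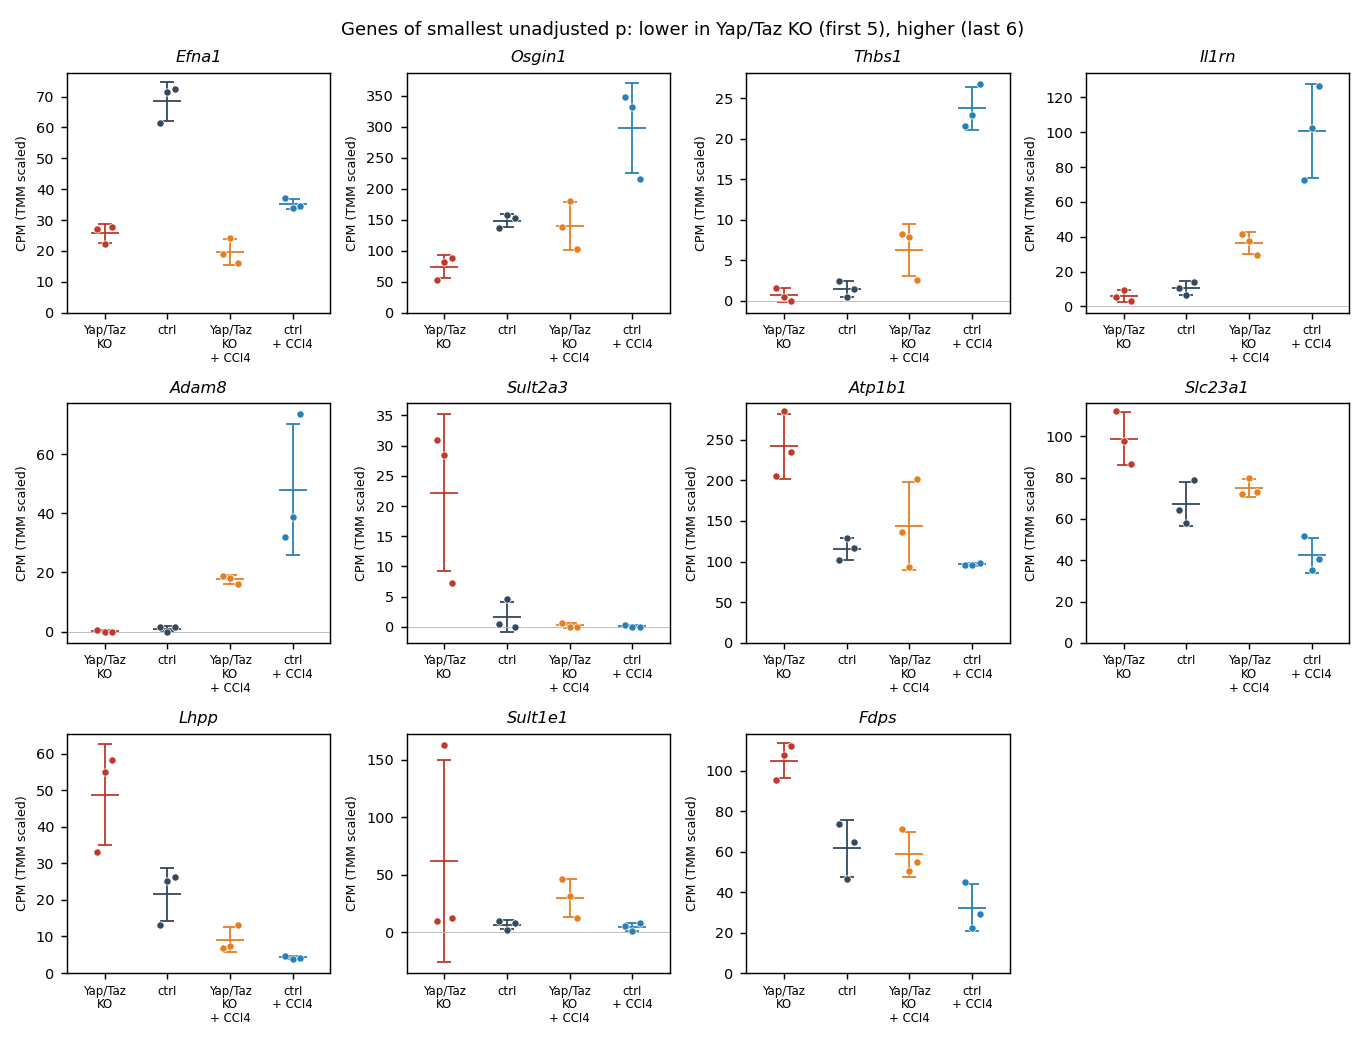
Level in each of the 12 libraries (points; CPM after TMM scaling) of the 5 genes of smallest p lower in Yap/Taz KO after Yap1 and the 6 genes of smallest p higher in Yap/Taz KO, with the group mean (wide dash) and SD (bars; n = 3). Efna1 and Osgin1 separate the genotypes in both injury states, while Thbs1, Il1rn and Adam8 are high only after CCl4 and Sult2a3 only without it.

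The other genes that DESeq2 called higher, named because of that call after their values were seen, were Dhdh, Hgfac, Nr1i2, Ppp1r3b, Nadsyn1 and Ropn1l. All 6 separated the groups in both states, as did 62 of all genes tested on the higher side (0.575%). This is no separate support, since the call that picked them used the same libraries. Nr1i2, the xenobiotic nuclear receptor PXR, stood at 81.2, 108 and 106 CPM in Yap/Taz KO, against 48.9, 67.4 and 62.5 CPM in ctrl, and at 43.2, 37.6 and 63.7 CPM in Yap/Taz KO + CCl4, against 24.5, 28.4 and 32.5 CPM in ctrl + CCl4 (edgeR pooled 0.74, SE 0.17). Hgfac, the protease that activates hepatocyte growth factor, stood at 310, 355 and 274 CPM in Yap/Taz KO, against 245, 267 and 200 CPM in ctrl, and at 115, 120 and 112 CPM in Yap/Taz KO + CCl4, against 42.5, 61.3 and 66.0 CPM in ctrl + CCl4 (0.71, SE 0.17). Ppp1r3b, which brings protein phosphatase 1 to glycogen, had an edgeR log2 fold change of 1.02, the NAD synthetase Nadsyn1 of 1.30, the dihydrodiol dehydrogenase Dhdh of 0.71 and Ropn1l of 1.05. Their edgeR adjusted p-values lay between 0.362 and 0.431.

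Genes of hepatocyte function lay mostly on the higher side in Yap/Taz KO, with pooled list medians under 0.4. No member of the 34 lists was called by edgeR; DESeq2 called 1 higher in the hepatocyte identity list (Nr1i2), 1 higher in cholesterol synthesis (Fdps), and 1 lower each in the acute phase (Il1rn) and NRF2 lists (Osgin1). Of the 31 hepatocyte identity genes 30 lay higher in point estimate, with a median of 0.32, and 7 were higher at an unadjusted p under 0.05, where 3.68% of all tested genes were. In drug metabolism 7 of 33 tested genes were higher at that p (median 0.35), among pericentral genes 5 of 23 (0.39), among periportal genes 5 of 22 (0.32), in bile acid synthesis and transport 5 of 24 (0.28), and in cholesterol synthesis 4 of 24 (0.24). None of these 6 lists had a member lower at that p. Their medians without injury and after CCl4 were 0.15 and 0.35 for hepatocyte identity and 0.19 and 0.55 for drug metabolism. For pericentral genes they were 0.21 and 0.67, and for periportal genes 0.0063 and 0.48. For bile acid synthesis and transport they were -0.030 and 0.33, and for cholesterol synthesis 0.12 and 0.39. Fatty acid and triglyceride synthesis had 3 of 21 higher (0.25) and fatty acid oxidation 3 of 21 (0.17). Without injury and after CCl4 the median was 0.17 and 0.31 in the synthesis list, and 0.16 and 0.088 in the oxidation list. The median of the fatty acid oxidation list was 0.091 without ctrl replicate 1, 0.11 without Yap/Taz KO + CCl4 replicate 2, and -0.031 without the 4 libraries of highest pancreatic acinar sum. Without these 4 libraries the pericentral median was 0.20 and the bile acid median 0.18, and the cholesterol median was 0.15 without Yap/Taz KO + CCl4 replicate 1 and 0.14 without ctrl + CCl4 replicate 3. Several genes stand in more than 1 of these lists.

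Several members of these lists had a higher point estimate after injury than without it, though no gene passed the test of that difference in edgeR. Cyp2a5, a pericentral cytochrome P450 whose reads may be split with its paralogs, stood at 391, 597 and 323 CPM in Yap/Taz KO, against 253, 361 and 311 CPM in ctrl, and at 19.9, 66.7 and 111 CPM in Yap/Taz KO + CCl4, against 11, 3.66 and 4.19 CPM in ctrl + CCl4. Its log2 fold change was 0.50 without injury and 3.41 after CCl4 (pooled 1.70, SE 0.49; edgeR adjusted p = 0.507), and the difference between states did not pass (edgeR interaction adjusted p = 0.459). Cyp7a1, the rate-limiting enzyme of bile acid synthesis, stood at 394, 111 and 201 CPM in Yap/Taz KO, against 197, 130 and 80.3 CPM in ctrl, and at 122, 86.9 and 169 CPM in Yap/Taz KO + CCl4, against 23.4, 6.71 and 56.4 CPM in ctrl + CCl4 (pooled 1.43, SE 0.42; edgeR adjusted p = 0.507). Only the injured groups were apart. Akr1d1, a reductase of the same pathway, had log2 fold changes of 0.23 without injury and 1.33 after CCl4. The urea cycle enzymes Ass1 and Otc, both periportal, had pooled log2 fold changes of 0.78 (SE 0.22) and 0.59 (SE 0.17), each with 6 of 6 knockout libraries above the control mean; both had an edgeR adjusted p of 0.507. Gulo, of vitamin C synthesis, stood at 546, 546 and 560 CPM in Yap/Taz KO + CCl4, against 322, 324 and 257 CPM in ctrl + CCl4, while its uninjured groups overlapped at 664 to 1103 CPM in Yap/Taz KO and 631 to 811 CPM in ctrl (pooled 0.61; edgeR adjusted p = 0.494). Hamp, the iron hormone hepcidin, is not in these lists but in the acute phase list. There 14 members lay higher and 14 lower in point estimate (median -0.0047). Hamp stood at 2601, 2460 and 4550 CPM in Yap/Taz KO + CCl4, against 1695, 1655 and 1706 CPM in ctrl + CCl4. Its uninjured groups overlapped at 1013 to 2427 CPM in Yap/Taz KO and 988 to 1797 CPM in ctrl (pooled 0.69, edgeR adjusted p = 0.57).

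The mean log2 CPM of the pericentral list lay between 5.24 and 5.56 in Yap/Taz KO + CCl4 and between 4.58 and 4.94 in ctrl + CCl4, without overlap, while without injury it lay between 6.6 and 7.02 in Yap/Taz KO and between 6.20 and 6.82 in ctrl, with overlap. The drug metabolism and hepatocyte identity lists were likewise apart after injury, at 6.65 to 7.14 in Yap/Taz KO + CCl4 against 6.19 to 6.29 in ctrl + CCl4, and at 8.89 to 9.08 in Yap/Taz KO + CCl4 against 8.56 to 8.69 in ctrl + CCl4. Such a gap after injury was not particular to these lists. The periportal, bile acid, fatty acid synthesis and circadian lists were also apart, higher in Yap/Taz KO + CCl4. The Hippo, cytoskeleton, fetal liver and progenitor, and cholangiocyte lists were apart in the other direction. The hepatocyte marker sums given above were also higher in all 3 injured knockout libraries than in the injured controls, and the mean log2 CPM of the monocyte and neutrophil list was lower in them, at 4.73 to 5.21 in Yap/Taz KO + CCl4 against 5.26 to 5.90 in ctrl + CCl4. The part of the cell mixture in these list values was not tested.

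**Figure D4:**
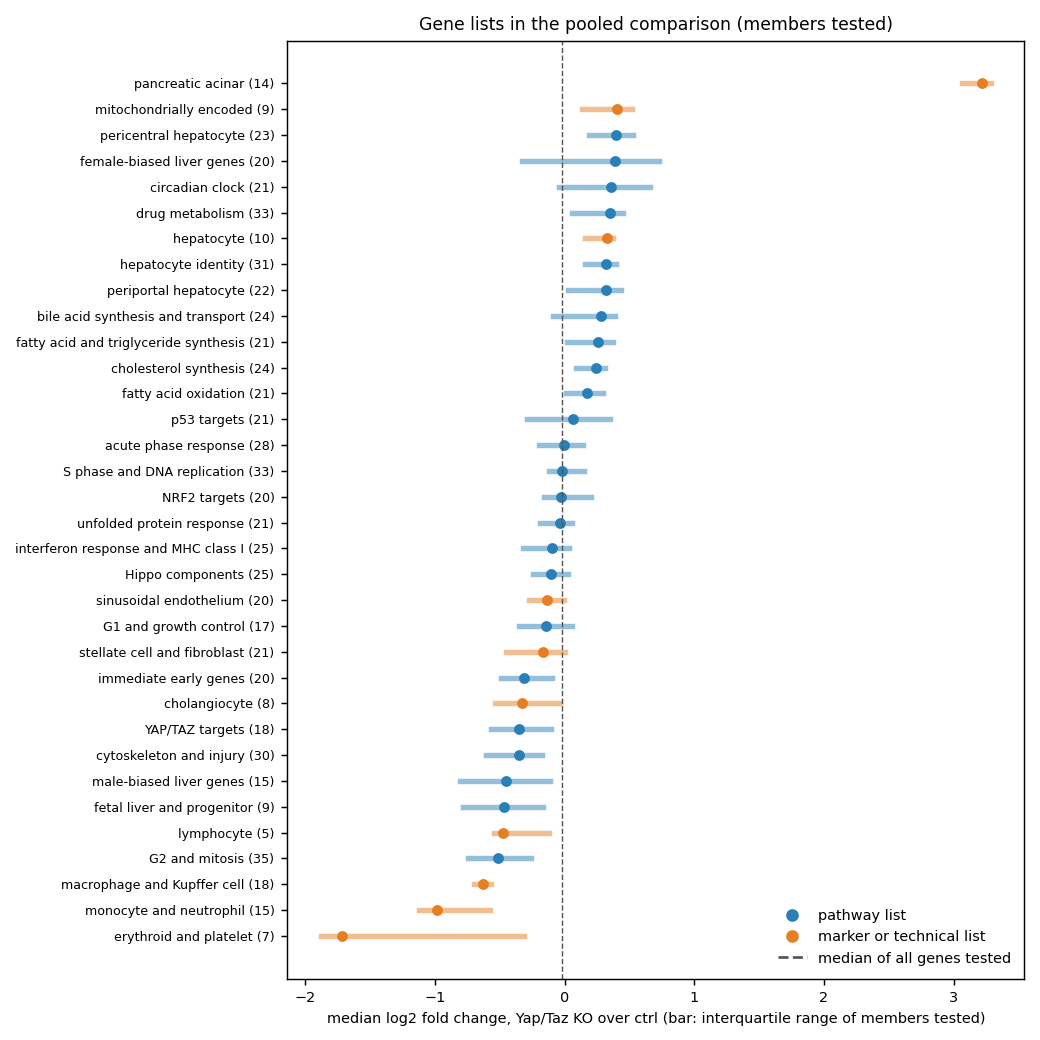
Median (point) and interquartile range (bar) of the pooled log2 fold change, Yap/Taz KO over ctrl, over the tested members of each list, with the number of members in brackets and the median of all genes tested as a dashed line. Lists of hepatocyte function lie to the right of the dashed line and lists of mitosis, cytoskeleton and leukocyte markers to the left; pancreatic acinar transcripts lie far apart at 3.22.

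Mitotic and cytoskeletal genes lay mostly on the lower side. Of 35 G2 and mitosis genes 34 were lower in point estimate, with a median of -0.51. The list median was -0.90 without injury and -0.39 after CCl4. After injury its mean log2 CPM overlapped, at 5.18 to 5.87 in Yap/Taz KO + CCl4 and 5.77 to 6.18 in ctrl + CCl4. At an unadjusted p under 0.05, 6 of these genes were lower, where 3.58% of all tested genes were. Cenpf, a kinetochore protein, stood at 135, 197 and 64.7 CPM in Yap/Taz KO + CCl4, against 259, 311 and 150 CPM in ctrl + CCl4, and at 6.58 CPM or less in every uninjured library (pooled -1.02, SE 0.34; edgeR adjusted p = 0.567). The injured groups overlapped. Cenpe, a kinetochore motor, stood at 84.0, 142 and 53.7 CPM in Yap/Taz KO + CCl4, against 168, 209 and 126 CPM in ctrl + CCl4, and at 6.17 CPM or less in every uninjured library (pooled -0.87; edgeR adjusted p = 0.645). In the S phase and DNA replication list no member was lower or higher at that p among 33 tested, and the median was -0.02, that of all genes. In the cytoskeleton and injury list 8 of 30 were lower at that p and none higher (median -0.35; -0.22 without ctrl replicate 1 and -0.20 without the 4 libraries of highest pancreatic acinar sum). Lgals3, galectin-3, stood at 561, 427 and 348 CPM in Yap/Taz KO + CCl4, against 575, 611 and 905 CPM in ctrl + CCl4, and at 19.5, 7.72 and 8.94 CPM in Yap/Taz KO, against 48.5, 14.1 and 17.1 CPM in ctrl (pooled -0.86, SE 0.28; edgeR adjusted p = 0.567). S100a6, a calcium-binding protein, had a pooled value of -0.77 (edgeR adjusted p = 0.645). Both genes are also made by macrophages.

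Leukocyte markers lay on the same side as these lists. All 18 macrophage and Kupffer cell markers were lower in point estimate, with a median of -0.63. Of these 18, 1 was lower at an unadjusted p under 0.05, where 3.58% of all tested genes were. Without ctrl replicate 1 this median was -0.10. Among 15 tested monocyte and neutrophil markers 8 were lower at that p and none higher (median -0.98; -0.68 without ctrl replicate 1). Gpnmb, a glycoprotein of lipid-laden macrophages, stood at 137, 173 and 116 CPM in Yap/Taz KO + CCl4, against 201, 271 and 510 CPM in ctrl + CCl4, and at 1.45 to 4.33 CPM in Yap/Taz KO, against 1.65 to 3.02 CPM in ctrl, so that its pooled value was in effect the injured comparison (pooled -0.98, SE 0.30; edgeR adjusted p = 0.507). Spp1, osteopontin, made by bile duct cells and macrophages, stood at 113, 169 and 46.8 CPM in Yap/Taz KO + CCl4, against 345, 291 and 416 CPM in ctrl + CCl4, and at 16.8, 13.5 and 21.3 CPM in Yap/Taz KO, against 32.1, 10.6 and 17.8 CPM in ctrl (pooled -1.09, SE 0.34; edgeR adjusted p = 0.521). Of the 14 cholangiocyte markers 6, Krt19, Krt7 and Epcam among them, had too few counts to be tested. All 14, Spp1 included, summed to 210 to 337 CPM in Yap/Taz KO + CCl4 and 522 to 629 CPM in ctrl + CCl4. Without Spp1, a sum added after its values were seen, they summed to 154 to 168 CPM in Yap/Taz KO + CCl4. In ctrl + CCl4 that sum was 204 to 232 CPM. In uninjured libraries the 14 markers summed, Spp1 included, to 109 to 151 CPM in Yap/Taz KO and 107 to 144 CPM in ctrl. The sinusoidal endothelial and stellate lists had medians of -0.13 and -0.16, which turned to 0.30 and 0.20 without ctrl replicate 1, to 0.13 and 0.28 without the 4 libraries of highest pancreatic acinar sum, and to 0.16 for both with the covariate given next; the endothelial median also turned, to 0.047, without Yap/Taz KO replicate 2. With a score of macrophage, endothelial and stellate markers as a covariate, the median of the G2 and mitosis list was -0.36, in place of -0.51. That of the cytoskeleton list was -0.25, in place of -0.35, and that of the YAP/TAZ target list -0.12, in place of -0.35. The score does not include the monocyte and neutrophil list. The part of the cell mixture in these medians was not tested.

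Stress-responsive, rhythmic and sex-biased genes gave smaller groups. Of 20 immediate early genes 4 were lower at an unadjusted p under 0.05 and none higher (median -0.31). Over all tested genes 3.58% were lower at that p and 3.68% higher. Egr1, a zinc finger transcription factor, stood at 182, 192 and 368 CPM in Yap/Taz KO, against 461, 310 and 394 CPM in ctrl, and at 254, 425 and 389 CPM in Yap/Taz KO + CCl4, against 346, 632 and 397 CPM in ctrl + CCl4, with overlap in both states (pooled -0.51; edgeR adjusted p = 0.669), and the RNA-destabilising protein Zfp36 had a pooled value of -0.41. The median of this list was -0.20 without ctrl replicate 1 and -0.17 without ctrl + CCl4 replicate 2, and turned to 0.20 without the 4 libraries of highest pancreatic acinar sum. Of 21 circadian clock genes 5 were higher at that p and none lower (median 0.36; 0.21 without Yap/Taz KO + CCl4 replicate 3). Hlf, a clock output transcription factor, stood at 79.6, 101 and 79.2 CPM in Yap/Taz KO, against 46.1, 38.8 and 82.5 CPM in ctrl, and at 39.1, 50.2 and 44.0 CPM in Yap/Taz KO + CCl4, against 26.4, 30.5 and 26.7 CPM in ctrl + CCl4 (pooled 0.66; edgeR adjusted p = 0.503). Usp2, a rhythmic deubiquitinase, spread from 9.75 to 102 CPM within the 3 Yap/Taz KO libraries and from 4.53 to 41.2 CPM within ctrl. The labels do not give the hour of collection.

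Of 15 tested male-biased liver genes 4 were lower at an unadjusted p under 0.05, all of them major urinary protein genes, whose near-identical sequences may split reads. The share of all tested genes at that p was 3.58% lower and 3.68% higher. Mup17 stood at 68.2, 85.9 and 77.1 CPM in Yap/Taz KO, against 71.2, 340 and 777 CPM in ctrl, a wide spread within the controls, and its injured groups overlapped at 6.28 to 26.5 CPM in Yap/Taz KO + CCl4 and 4.19 to 68.0 CPM in ctrl + CCl4 (pooled -1.63, SE 0.57; edgeR adjusted p = 0.599). The median of the male-biased list was -0.45 pooled, -0.83 without injury and 0.13 after CCl4, and the pooled median was -0.15 without ctrl replicate 3 and -0.30 without Yap/Taz KO replicate 1. Mup10 had a pooled value of -1.08 (edgeR adjusted p = 0.518). Among 20 female-biased genes 3 were higher at that p and 1 lower (median 0.39; 0.71 without ctrl replicate 1, 0.22 without ctrl replicate 3, 0.25 without Yap/Taz KO replicate 1 and 0.049 without the 4 libraries of highest pancreatic acinar sum); Cyp17a1, of steroid synthesis, and Cyp2b13 had pooled values of 0.80 and 0.81, with edgeR adjusted p-values of 0.507 and 0.539. The p53 and NRF2 target lists were mixed. In the p53 list 2 genes were higher and 2 lower at that p: Sesn2, a stress-induced inhibitor of mTORC1 signalling, had a pooled value of 1.13 and the kinase Plk2 of -0.72.

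Pancreatic acinar transcripts formed the list with the highest median of the 34. All 14 tested members lay higher in Yap/Taz KO, with a median log2 fold change of 3.22. At an unadjusted p under 0.05, 12 did so, where 3.68% of all tested genes did. As given above, 3 knockout libraries and 1 control carried nearly all of these transcripts. Without these 4 libraries, which leaves replicate 3 alone in the Yap/Taz KO + CCl4 group, the list median was -0.73. The log2 fold change of Yap1 was then -2.20.

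The additive model takes the knockout effect to be alike with and without injury, and this was examined gene by gene. The genotype by injury interaction called 0 of 10780 genes in edgeR, with 935 (8.67%) at an unadjusted p under 0.05; DESeq2 called 12. A fit of all libraries with 1 coefficient per group gave the knockout effect within each state. There edgeR called 0 genes without injury, with 1041 (9.66%) at an unadjusted p under 0.05. After CCl4 it called 0 genes, with 702 (6.51%) at that p. For Yap1 the interaction was -0.07 (SE 0.42) on the log2 scale, for Ccn1 0.36 (SE 0.81) and for Amotl2 0.20 (SE 0.49), intervals too wide to show that the effects are alike. For Ccn2 it was 3.62 (SE 1.54) and for Ankrd1 -2.86 (SE 1.22), with edgeR interaction adjusted p-values of 0.55 for both. Notum, a secreted Wnt inhibitor expressed around the central vein and named for having the smallest interaction p of the genes described, averaged out in the pooled estimate. It stood at 28.2, 19.3 and 11.9 CPM in Yap/Taz KO, against 24.3, 60.9 and 44.8 CPM in ctrl, and at 18.6, 26.9 and 34.2 CPM in Yap/Taz KO + CCl4, against 6.59, 5.80 and 7.73 CPM in ctrl + CCl4. Its log2 fold change was -1.13 without injury and 1.98 after CCl4, and 0.33 (SE 0.48) pooled (edgeR interaction unadjusted p = 4.45e-05, adjusted p = 0.341).

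**Figure D5:**
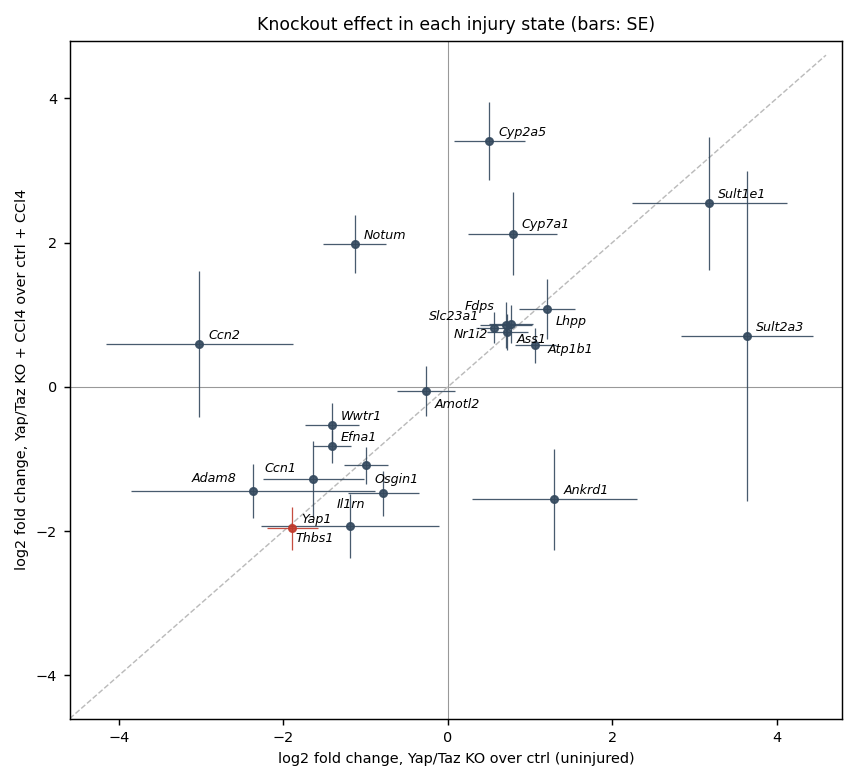
Log2 fold change of Yap/Taz KO over ctrl without injury (x axis) against that of Yap/Taz KO + CCl4 over ctrl + CCl4 (y axis) for named genes, with SE bars and the line of equal effect (dashed); Yap1, the called gene, is in red. Yap1 lies on the line at -1.89 and -1.96, while Cyp2a5 and Notum lie above it at 3.41 and 1.98 after CCl4.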

How the data were processed

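Raw counts per gene symbol in 12 QuantSeq 3' FWD libraries of 500000 sorted hepatocytes were deposited by the authors, unscaled. The submitters' processing notes list STAR 2.6.1d, cutadapt and FastQC with build GRCm38 (mm10); counter, annotation, sorting gate and use of molecular identifiers: not given in the sources used here. Samples were grouped by the labels. Libraries within a group differed by more than sampling noise (chi-square over its degrees of freedom 8.56 to 26.6).

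The test was that of edgeR 4.0.16 (R 4.3.3): filterByExpr over the 4 groups (minimum count 10, minimum total 15), TMM scaling, a quasi-likelihood F test of genotype with injury as an additive term, and Benjamini-Hochberg adjustment at 0.05. Alternatives used DESeq2 1.42.0, limma 3.58.1, other scalings and filters, covariates and left-out libraries. The fit was tested on simulated data. Gene positions came from GENCODE M21 and promoters from RefSeq.

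The members and lists were chosen with earlier results of these data known. The rule for named genes took both targeted genes, Amotl2, Ankrd1, Ccn1 and Ccn2, all genes past the threshold, the genes of smallest p with at least 20 CPM in 1 group up to 6 per direction, and the 2 most abundant markers of each marker list, for which only list sums are given here, except for Spp1. The other genes were chosen after their values were seen.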

Additional observations from a re-analysis of the deposited data

How the results depend on the processing

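Yap1 passed in all 28 alternatives (log2 fold change -2.20 to -1.82) and Wwtr1 in none (-1.07 to -0.71). The number of genes called higher and lower, 0 and 1 here, was 0 and 3 with library totals, 63 and 22 with no low-count filter, 10 and 5 with DESeq2, 0 and 2 with limma-voom, 0 and 2 with the legacy quasi-likelihood, 0 and 3 with robust estimation, 0 and 2 with 1 coefficient per group, and 2 and 3 with the non-hepatocyte marker score as covariate. Added after the data were seen, the pancreatic acinar score as covariate gave 11 and 29, and limma-voom with sample quality weights 0 and 5. The fit without the 4 libraries of highest acinar sum was also added then. It leaves replicate 3 alone in the Yap/Taz KO + CCl4 group, so no count is given for it. Without the filter the median residual degrees of freedom of the moderated test were 87.4, against 16.8, and 12 of its 85 genes were also called by DESeq2; the cause was not tested. Leaving out 1 library at a time gave 0 to 2 higher and 1 to 2 lower: Mrm1 was added without Yap/Taz KO replicate 2, Efna1 without Yap/Taz KO + CCl4 replicate 2, and Reg3b and Reg3g without Yap/Taz KO + CCl4 replicate 3. The replicate block gave 0 and 1. No label says that a replicate number marks a pair, so the numbers were not taken to pair the samples. Of 18 same-numbered pairs 7 had a correlation over 0.1 (range -0.15 to 0.32), and 7 of 12 libraries correlated best with their own number. Whether the numbers pair the samples was not tested. The interaction called 30 genes with no filter, 12 with DESeq2 and 0 to 1 with a library left out (1 without ctrl replicate 1).

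Ccn2 turned to 0.26 with limma-voom, 0.19 with the marker covariate, 0.42 with quality weights and 1.26 without the 4 acinar-rich libraries, and ranged from -1.42 to 0.79 with a library left out. Amotl2 turned to 0.034 without those 4 libraries and Notum to -0.079 with injury left out of the model. With a library left out the interaction ranged from -0.32 to 0.24 for Yap1, from -0.091 to 1.22 for Ccn1, from -1.18 to 4.40 for Ccn2 and from -0.097 to 0.42 for Amotl2; the cause was not tested. Of 54 named genes 22 kept direction and side of the threshold in every alternative. The longer motif ACATTCC was in 2.95% of the promoters available for all tested genes, 4.67% of those lower and 3.04% of those higher. In the YAP/TAZ list it was in 21.4%. For the lower genes the 95% Wilson interval was 3.01 to 7.18%, with its lower end just above the share over all. It takes each of the 407 promoters as separate, though they came from 300 genes, so it cannot show an excess. Depth limits genes such as Ankrd1 and uninjured Thbs1, whose levels rest on few counts.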
